A study of Mus musculus with 4 samples.

Results

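The 8 genes described here encode receptors of retinoic acid (RA) and proteins that bind or take up retinoids. They are the RA receptor genes Rara, Rarb and Rarg, the retinoid X receptor genes Rxra and Rxrb, the cellular RA-binding protein genes Crabp1 and Crabp2, and the retinol uptake receptor gene Stra6. They were chosen by name, and all 8 are among the 15803 genes of the table. RNA-seq was performed on the second heart field (SHF) region, the territory of cardiac progenitor cells in splanchnic mesoderm, microdissected from mouse embryos at E8.5. Of the 4 libraries, 2 came from wild-type embryos (WT) and 2 from Hoxb1 mutant embryos (Hoxb1Mu). Per the methods of the study the mutants are Hoxb1-/- embryos, no other allele or treatment is labelled for either group, and RNA of several embryos was pooled for each replicate. The comparison asks which genes differ in this region when Hoxb1 is lost.

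RA is made from retinol inside cells and acts through nuclear receptors. STRA6 takes up retinol from its carrier in plasma, CRABP1 and CRABP2 hold RA in the cytoplasm, with CRABP2 known to deliver it to the nucleus, and RAR and RXR proteins bind as pairs to response elements in DNA, where they repress without ligand and activate with it. In the early embryo, RA from the posterior mesoderm sets the limit between anterior and posterior SHF and induces Hox genes, Hoxb1 among them. Rarb is itself a classical target of RA, and Crabp1 is a known marker of hindbrain and migrating neural crest.

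Promoter windows from RefSeq (GRCm38.p6), 250 bases before to 50 after an annotated start, were found for 7 of the 8 genes, 16 windows in all, and not for Crabp2. The 250 bases before the start are printed for the gene that carries an RA response element at its start, Rarb (chr14:16575477-16575726, minus strand), and for the gene with the largest difference between the groups, Crabp1 (chr9:54764498-54764747, plus strand). Capitals in Rarb mark a direct repeat with a spacing of 5 bases, named DR5, here a pair of half-sites in the same orientation, each AGGTCA or AGTTCA or GGGTCA or GGTTCA. Capitals in Crabp1 mark GGGCGG on either strand, the GC box that SP1 proteins bind.
Rarb: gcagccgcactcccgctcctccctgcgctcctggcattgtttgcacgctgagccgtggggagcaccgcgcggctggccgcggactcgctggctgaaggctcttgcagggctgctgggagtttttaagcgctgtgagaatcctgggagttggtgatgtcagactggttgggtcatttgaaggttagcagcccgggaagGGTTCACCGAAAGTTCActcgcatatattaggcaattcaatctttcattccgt
Crabp1: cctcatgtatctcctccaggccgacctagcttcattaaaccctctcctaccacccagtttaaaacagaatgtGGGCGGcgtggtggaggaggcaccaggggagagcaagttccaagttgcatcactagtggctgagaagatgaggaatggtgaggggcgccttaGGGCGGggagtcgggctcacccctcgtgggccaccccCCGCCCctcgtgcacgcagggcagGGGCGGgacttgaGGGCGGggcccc
The DR5 match of Rarb lies from -53 to -37 relative to the start (chr14:16575513-16575529). It was the only DR5 match in the 16 windows, and 0.0974% of all 32851 windows held one. The forms searched include both half-sites of this Rarb element, GGTTCA and AGTTCA, so the match is not an independent finding. The Crabp1 stretch held 5 matches to GGGCGG, none overlapping, and 35.7% of all windows held at least 1, as did 11 of the 16 windows of these genes. The single half-site AGGTCA was found in 3 of the 16 windows (of Rara, Rarg and Rxra, against 16.3% of all windows). TGATNNAT, a site form that HOX and PBX proteins bind together, was found in 2 overlapping windows of Stra6 and in 8.85% of all windows. Both strands were searched, and a match is a match of letters only.

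The libraries held between 31331595 and 34383760 reads in the listed genes. Values are normalised counts, reads divided by the size factor of their library, and fold changes are log2 of Hoxb1Mu over WT on the log2(value + 1) scale ± SE from limma. Hoxb1 was 4.26-fold lower, with 682 and 617 normalised counts in WT and 137 and 167 in Hoxb1Mu. The libraries also differed in sex-linked genes. Xist stood at 26992 and 32024 normalised counts in the WT libraries, at 111 in Hoxb1Mu 1 and at 5935 in Hoxb1Mu 2, and the Y-linked gene Ddx3y had 2205 in Hoxb1Mu 1 and at most 3.85 in each other library. The methods describe pooled embryos, but in these genes both WT libraries and Hoxb1Mu 1 each look like a single sex. How many embryos a library held is therefore uncertain. Only Hoxb1Mu 1 had high Y-linked values, so sex was not balanced between the groups. The part of sex in the results below was not tested. Of 12 SHF mesoderm markers (Isl1, Nkx2-5, Gata4, Tbx5 and others) all were present, 5 with positive and 7 with negative fold changes, with a median of -0.041. By DESeq2, at an adjusted p under 0.05, 1 was called higher (Tbx1, 0.50 ± 0.097) and 1 lower (Gata4, -0.31 ± 0.053). Foxf1 (-0.36 ± 0.094) and Wnt2 (-0.29 ± 0.063) were not called. Markers of other tissues differed between the groups and are given beside the results they touch. In such bulk samples, fewer cells of a type and less RNA per cell cannot be told apart.

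The 5 receptor genes and Stra6 differed little between the groups, and Crabp1 was higher in Hoxb1Mu. All 8 genes passed the filter on low values. By limma, at a Benjamini-Hochberg adjusted p under 0.05 over 15760 genes, 0 of the 8 were called, as were 0% of all genes, and their adjusted p ranged from 0.163 (Crabp1) to 0.906 (Rarb). By the edgeR quasi-likelihood test 0 were called, again as 0% of all. At an unadjusted p under 0.05, limma gave 1 of the 8 (Crabp1), against 18.6% of all genes, and edgeR gave 2 (Crabp1 and Rara), against 18.3% of all genes. DESeq2, run on the recovered reads, called 1 of the 8, Crabp1, where it called 4.72% of the genes it gave an adjusted p, 2.01% as higher in Hoxb1Mu. Both Hoxb1Mu libraries lay above both WT libraries for 3 of the 8 genes (Rara, Rxrb and Crabp1) and below for 0. Among all tested genes 53.5% had groups that did not overlap, 26.4% with Hoxb1Mu higher. The median size of the fold change without its sign was 0.13 for the 8 genes and 0.13 for all tested genes. For 5 of the 8, 2 libraries of the same group lay farther apart than the means of the groups did.

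**Figure D1:**
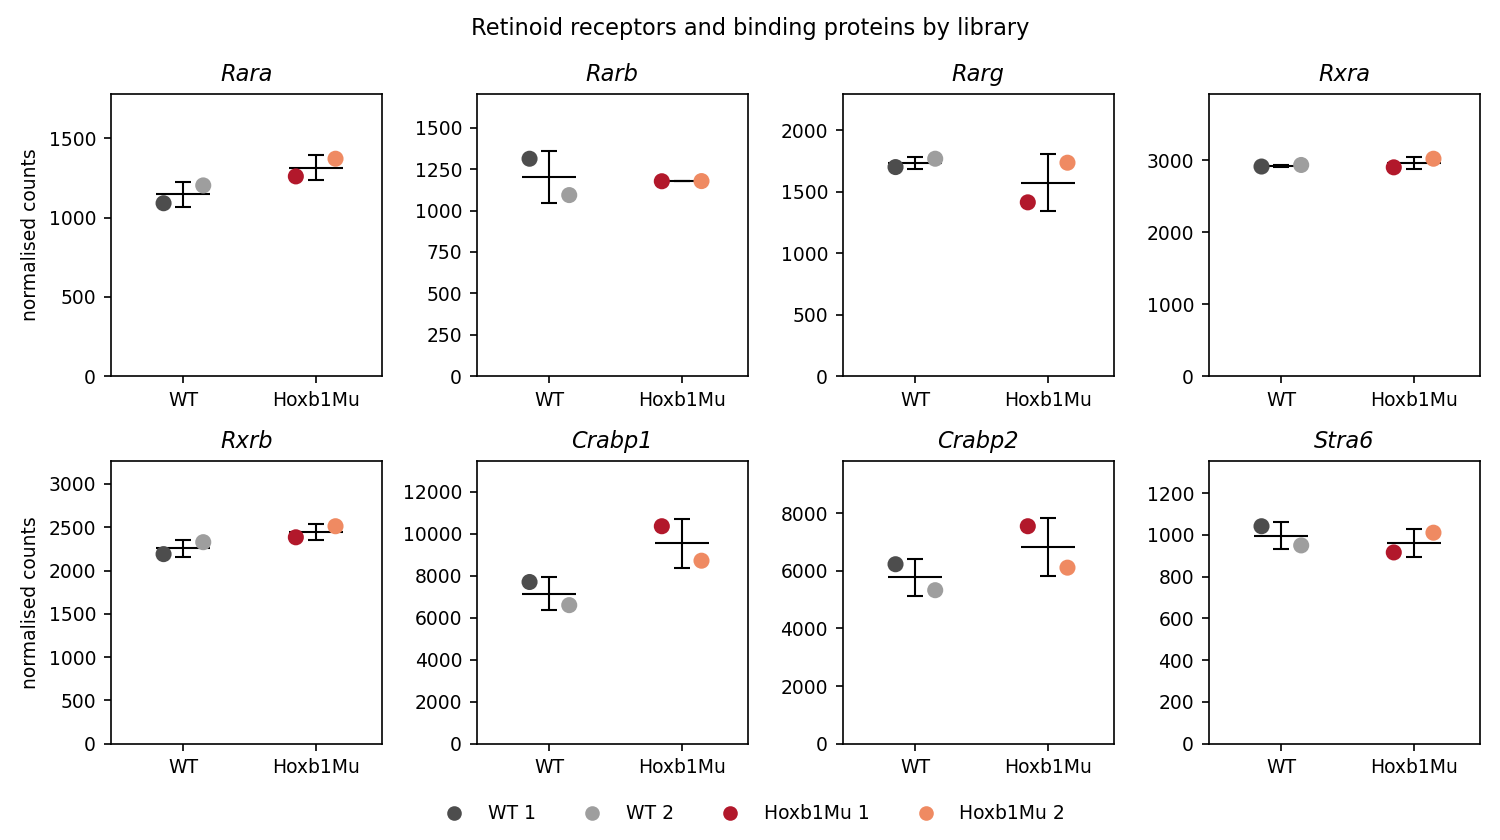
Normalised counts (y axis from 0) of the 8 genes in each of the 4 libraries. Points are libraries, and bars give the mean ± SD of the 2 libraries of a group. In Rara, Rxrb and Crabp1 both Hoxb1Mu points lie above both WT points, and in the other 5 genes the groups overlap.

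Rara (chromosome 11, 98927818 to 98974942, mm10) encodes RARα, the most widely expressed RA receptor. It lies 2.56 Mb from Hoxb1 on the same chromosome. It had 1090 and 1202 normalised counts in WT and 1259 and 1371 in Hoxb1Mu. Both mutant libraries were above both WT libraries, but the lower mutant library was closer to the higher WT library than to the other mutant one. The log2 fold change was 0.20 ± 0.082 (95% interval -0.0033 to 0.40, limma adjusted p = 0.273, DESeq2 adjusted p = 0.412), and it was 0.13 without WT 1.

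Rarb (chromosome 14, 16430839 to 16819156) encodes RARβ. It had 1313 and 1094 normalised counts in WT and 1177 and 1178 in Hoxb1Mu. The mutant libraries were nearly equal and lay between the WT libraries. The log2 fold change was -0.025 ± 0.099, with an interval from -0.27 to 0.22, which in fold is 0.831 to 1.16. Without WT 1 the fold change was 0.11 and without WT 2 it was -0.16, so its sign followed the WT library left out, and it was 0.0029 with libraries rescaled to equal totals. In GENCODE vM21 the exons of Rarb share 1793 bases with exons of Top2b on the opposite strand, 34.1% of the exon length of Rarb. The study's methods describe amplified double-stranded cDNA and no step that keeps the strand, and the strand setting of counting is not given. In that stretch the reads of these genes may therefore not have been told apart. Top2b, a DNA topoisomerase gene, had a log2 fold change of 0.0030 ± 0.052.

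Rarg (chromosome 15, 102234938 to 102257517) encodes RARγ, which in the embryo is known from mesenchyme and tail bud. The WT libraries had 1701 and 1769 normalised counts, Hoxb1Mu 1 had 1414 and Hoxb1Mu 2 had 1736. Only Hoxb1Mu 1 was low, and Hoxb1Mu 2 lay between the WT libraries. The log2 fold change was -0.15 ± 0.10 (interval -0.40 to 0.11, limma adjusted p = 0.487), and it was -0.29 without Hoxb1Mu 2 and 0.0016 without Hoxb1Mu 1.

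The RXR genes encode the partners that RARs share with other nuclear receptors. Rxra (chromosome 2, 27676440 to 27762957), whose product is the main RXR of the developing heart in mice, had 2911 and 2933 normalised counts in WT and 2900 and 3019 in Hoxb1Mu. These were the closest groups of the 8 genes, with a log2 fold change of 0.018 ± 0.052 and an interval of 0.927 to 1.11 in fold. Rxrb (chromosome 17, 34031812 to 34038399) had 2190 and 2328 normalised counts in WT and 2384 and 2512 in Hoxb1Mu. The groups of Rxrb did not overlap, but the gap between the nearest libraries was smaller than that within either group. Its log2 fold change was 0.12 ± 0.062 (interval -0.035 to 0.27, limma adjusted p = 0.360), and it was 0.072 without WT 1. Over the 5 receptor genes, the intervals ran in fold from 0.757 (Rarg) to 1.32 (Rara).

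Crabp1 (chromosome 9, 54764748 to 54773110) encodes a cytoplasmic protein that binds RA with high affinity. It had 7694 and 6592 normalised counts in WT and 10348 and 8708 in Hoxb1Mu. Both mutant libraries were above both WT libraries, and WT 1 and Hoxb1Mu 1 were the higher libraries of their groups. The means were 7143 ± 779 and 9528 ± 1160 (SD, n = 2), 1.33-fold higher, with a log2 fold change of 0.41 ± 0.11 and an interval of 0.16 to 0.67. The limma adjusted p of 0.163 and the edgeR adjusted p of 0.166 missed the threshold, whereas DESeq2 called it higher (0.42 ± 0.10, adjusted p = 0.00280). DESeq2 also called it without WT 1 (adjusted p = 0.00152) and without Hoxb1Mu 2 (6.07e-04). It did not call it without WT 2 (0.250) or without Hoxb1Mu 1 (0.158), and limma called it in none of the 4 fits without 1 library.

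Crabp2 (chromosome 3, 87948666 to 87953376), the paralogue of Crabp1, stood at 6225 and 5324 normalised counts in the WT libraries, at 7543 in Hoxb1Mu 1 and at 6105 in Hoxb1Mu 2. Hoxb1Mu 1 was the highest library, while Hoxb1Mu 2 lay between the WT libraries. The log2 fold change was 0.24 ± 0.12 (interval -0.051 to 0.53, limma adjusted p = 0.337, DESeq2 adjusted p = 0.237). It was 0.39 without Hoxb1Mu 2 and 0.085 without Hoxb1Mu 1, so most of the difference lay in Hoxb1Mu 1. With libraries rescaled to equal totals the groups of Crabp2 and of Rxra also did not overlap, which made 5 of the 8 genes higher in this sense, where 31.7% of all tested genes were.

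Stra6 (chromosome 9, 58063788 to 58153996) lies 3.29 Mb from Crabp1. It had 1041 and 949 normalised counts in WT and 916 and 1010 in Hoxb1Mu, and the groups overlapped. The log2 fold change was -0.048 ± 0.088 (interval -0.26 to 0.17, limma adjusted p = 0.794), and it turned positive without WT 1 (0.019) and without Hoxb1Mu 1 (0.023).

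**Figure D2:**
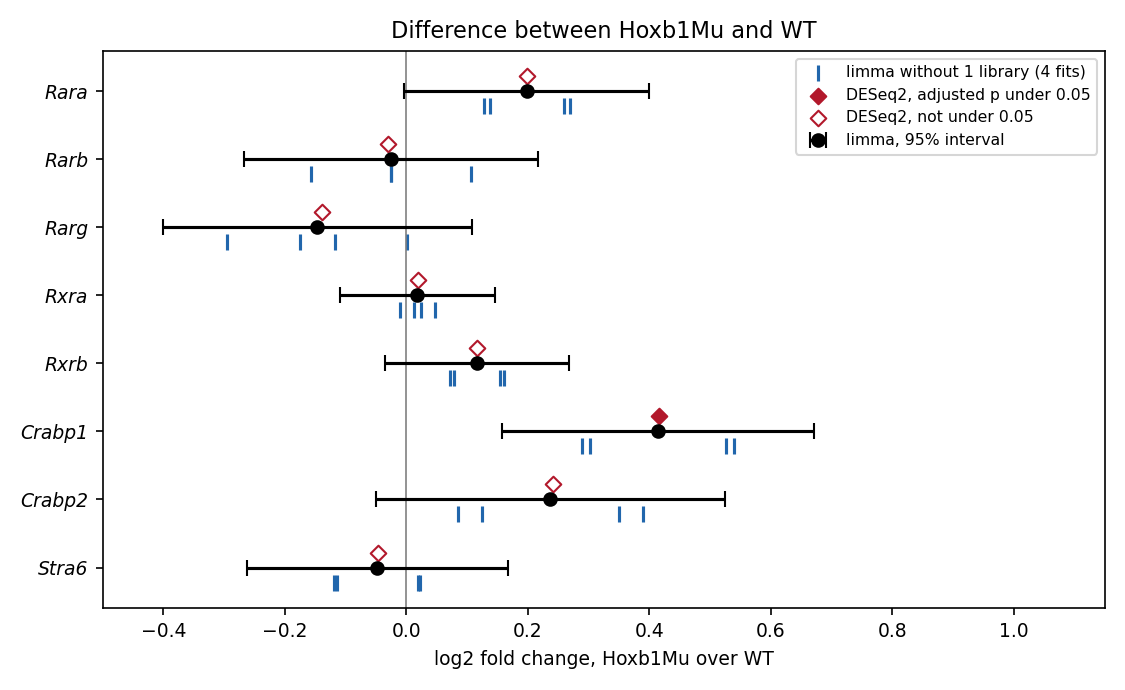
Log2 fold change of Hoxb1Mu over WT (x axis) for the 8 genes (y axis). Black points and bars give limma with its 95% interval, blue ticks the 4 limma fits without 1 library, and diamonds DESeq2, filled where its adjusted p was under 0.05. The interval of Crabp1 (0.16 to 0.67) lies above 0 and its diamond alone is filled, and the intervals of the other 7 genes reach across 0.

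Divided by exon length, the genes fell into a high pair and a low group. Crabp1 had 8907 ± 971 normalised counts per kb in WT and Crabp2 4368 ± 482, and next came Rxrb with 568 ± 24.6. Rxra (535 ± 2.81), Rarg (407 ± 11.3), Rara (263 ± 18.2), Rarb (229 ± 29.5) and Stra6 (171 ± 11.1) followed in this order. The level per kb of Crabp1 in WT was 52.2 times that of Stra6. In Hoxb1Mu the order was the same, from 11880 ± 1446 for Crabp1 to 165 ± 11.5 for Stra6. Over the 4 libraries the ranges of neighbours in this order were separate except those of Rxrb and Rxra, although Rxrb was the higher in each library. Rara and Rarb were nearly equal in WT 1 (250 and 249 per kb), and they exchanged places when the longest transcript replaced the union of exons. Coverage of amplified libraries can be uneven along a transcript, so small differences in level per kb carry an error that the spread between libraries does not show. For Rarb the length included the 1793 exon bases shared with Top2b, where reads of these genes may not have been told apart. The level of Rarb per kb, and so its place below Rara, is therefore uncertain.

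Within each receptor family, shares of the signal per kb do not depend on how libraries are scaled. Rarg made up 44.4% and 46.2% of the RAR signal in WT and 39.3% and 43.1% in Hoxb1Mu. Rara made up 27.8% and 30.7% in WT and 34.2% and 33.2% in Hoxb1Mu. The difference between the means, Hoxb1Mu minus WT, was -4.11 points for Rarg and 4.47 points for Rara, and neither overlapped between the groups. Without Hoxb1Mu 1 the difference for Rarg was -2.21 points. The share of Rarb overlapped between the groups (25.4% ± 3.28 and 25.1% ± 2.00). The total RAR signal was 898 per kb in both WT libraries and 844 and 945 in Hoxb1Mu. The RAR shares and totals carry the limit given for Rarb, whose length includes bases shared with Top2b.

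Among the RXR genes, Rxra made up 49.2% and 47.8% in WT and 46.9% and 46.6% in Hoxb1Mu, a difference of -1.70 points, or -1.02 without WT 1. Of the summed signal of the Crabp genes, Crabp1 made up 67.1% ± 0.028 in WT (SD, n = 2) and 69.7% ± 0.58 in Hoxb1Mu, a difference of 2.65 points with no overlap. With 2 libraries against 2, the 2-sided exact permutation test cannot give a p below 0.333. It gave this smallest value for the shares of Rara, Rarg, Rxra and Crabp1, and 1 for Rarb, so none of these differences can pass a threshold of 0.05.

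**Figure D3:**
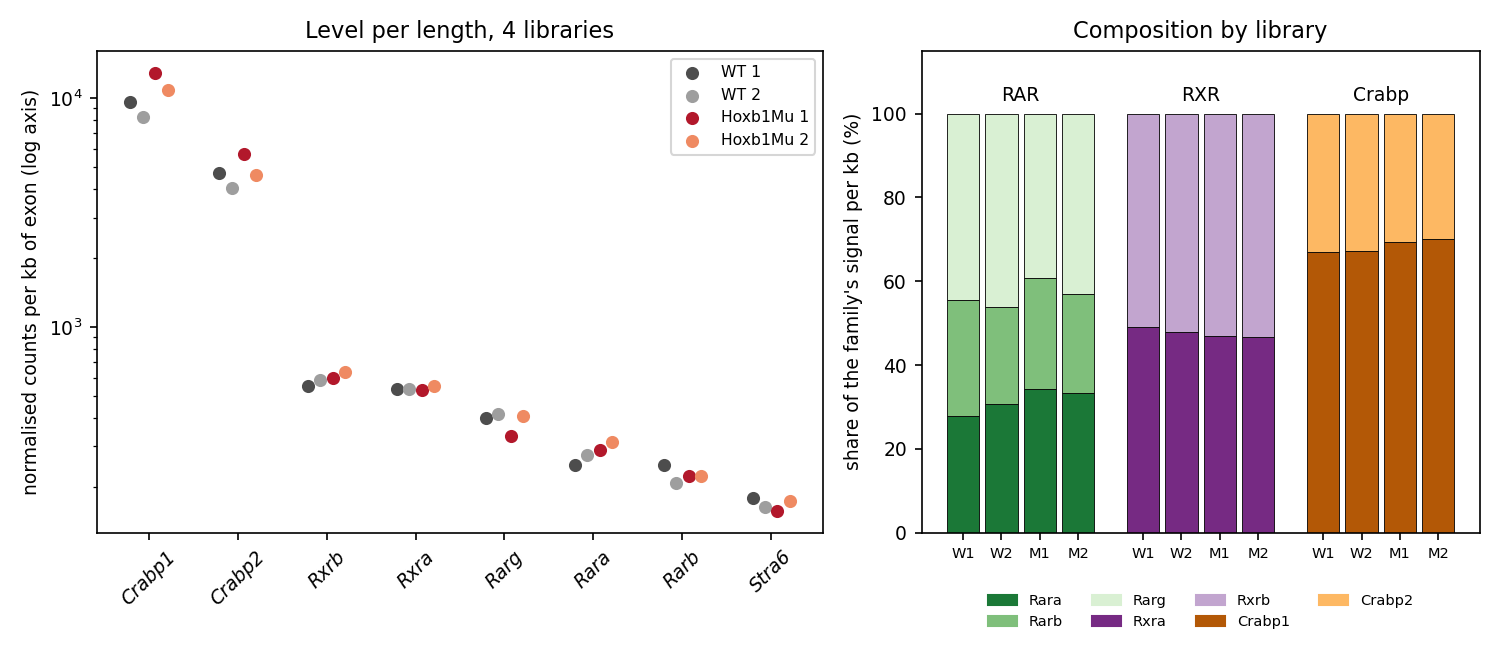
Left, normalised counts per kb of exon (log axis) of each gene in the 4 libraries, ordered by mean level, with the Crabp genes between 4027 and 12903 and the others between 157 and 632. Right, share of each gene in the signal per kb of its family (%), for WT 1 and 2 (W1, W2) and Hoxb1Mu 1 and 2 (M1, M2), where the share of Rara is higher and that of Rarg lower in both mutant libraries than in both WT libraries.

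Other genes of the RA pathway moved in both directions. The list of enzymes and carriers had 13 of 14 genes in the table (Lrat was not analysed here), 5 with positive and 8 with negative fold changes, and a median of -0.11 against 0.00061 for all tested genes. limma called 0 of them, and DESeq2 called 2, both higher and both encoding enzymes that degrade RA. Cyp26b1 had 164 and 137 normalised counts in WT and 399 and 317 in Hoxb1Mu (log2 fold change 1.24 ± 0.17), and Cyp26c1 had 1970 and 2005, then 2385 and 2662 (0.34 ± 0.070). The RA-synthesising enzyme gene Aldh1a2 had 0.13 ± 0.11, and Cyp26a1, the third degrading enzyme and like Rarb a classical RA target, had -0.096 ± 0.082. The groups of Cyp26a1 did not overlap and those of Aldh1a2 did. The carriers of retinol in plasma were lower, Rbp4 by -1.18 ± 0.37 and Ttr by -1.10 ± 0.29 on the log2 scale, neither called. Both are also on the list of 12 yolk sac endoderm markers, all lower in Hoxb1Mu, whose summed level was 119336 to 127067 in WT and 36394 to 78322 in Hoxb1Mu. The part of yolk sac tissue in these differences was not tested.

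Of 13 coregulators of RAR and RXR, 6 had positive and 7 negative fold changes (median -0.0023). limma called 0 and DESeq2 called 2, both higher. Med1, a Mediator subunit that contacts nuclear receptors, had 3141 and 3361 normalised counts in WT and 4227 and 4510 in Hoxb1Mu (0.43 ± 0.061). Nrip1, a corepressor that binds ligand-bound receptors, had 1917 and 1726, then 2381 and 2243 (0.35 ± 0.073). The coactivator gene Ncoa3 had -0.13 ± 0.055 and was not called. Of 11 other nuclear receptor genes that use or are RXR, 9 were in the table and limma and DESeq2 called 0. DESeq2 left 2 of the 9 without an adjusted p, and Thrb and Ppara were not analysed here. Rxrg, the remaining RXR gene, had 139 and 135 normalised counts in WT and 112 and 102 in Hoxb1Mu (-0.36 ± 0.16). The others named by rule were Thra (0.20 ± 0.095), Nr4a1 (0.23 ± 0.15) and Nr4a2 (0.41 ± 0.14). Vdr (-1.04 ± 0.26), the vitamin D receptor gene, is added after its values were seen. It had 109 and 125 normalised counts in WT and 70 and 45 in Hoxb1Mu, and DESeq2 gave it no adjusted p.

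Of 15 genes known to respond to RA, 14 were in the table (Stra8 was not analysed here), 7 with positive and 7 with negative fold changes (median -0.011). limma called 0, and DESeq2 called 2 higher and 1 lower. The orphan nuclear receptor genes Nr2f1 and Nr2f2 were the higher ones, with 0.56 ± 0.11 and 0.42 ± 0.061. Meis2, which encodes a HOX cofactor, had 0.14 ± 0.046 and was not called. This list shares 3 genes, Cyp26a1 and Dhrs3 among them, with the list of enzymes and carriers.

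**Figure D4:**
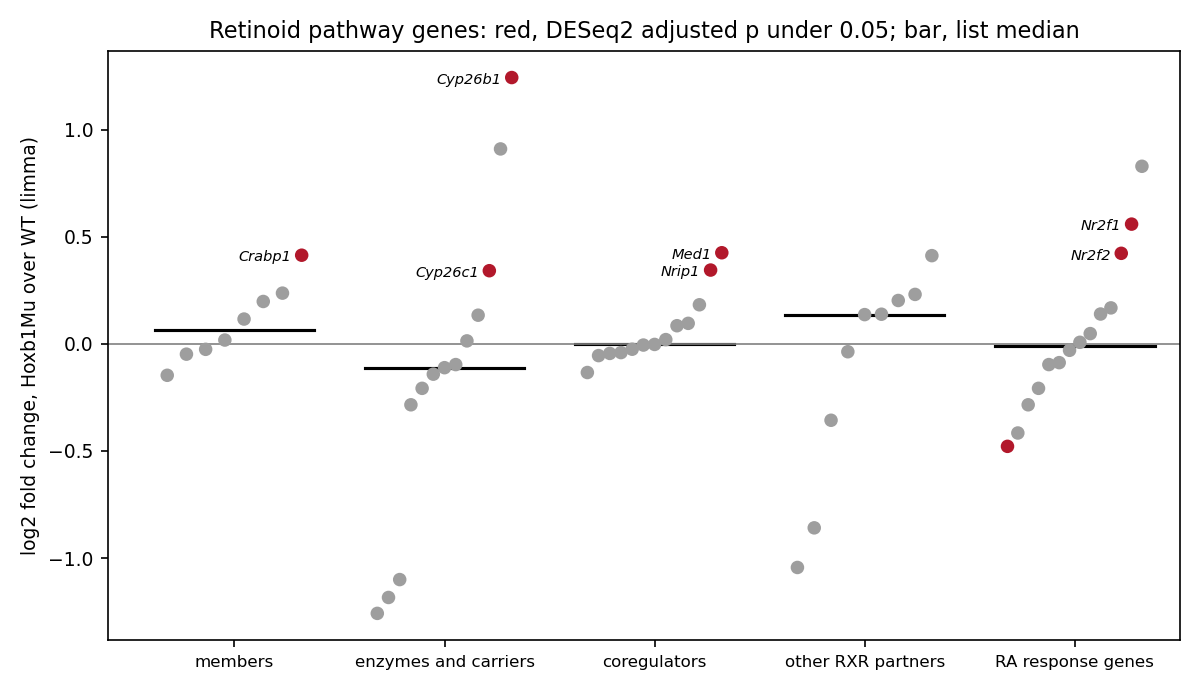
Limma log2 fold change of Hoxb1Mu over WT (y axis) of the 8 genes and of 4 lists of RA pathway genes (x axis). Each point is a gene, bars are list medians, and red points had a DESeq2 adjusted p under 0.05, with names at those that were higher in Hoxb1Mu. The list medians lie between -0.11 and 0.14, and Cyp26b1 is the highest point.

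Some markers of neural tissue were also higher in Hoxb1Mu, 4 of 12 for the neural tube and 7 of 12 for neural crest by DESeq2. It called 2.01% of all genes with an adjusted p as higher, and left 1 gene of each list without one. In both lists limma called 0. Relative to the WT mean on the log2 scale, Crabp1 stood at 0.54 in Hoxb1Mu 1 and 0.29 in Hoxb1Mu 2, and Crabp2 at 0.39 and 0.085. The mean of 12 neural tube markers stood at 0.41 and 0.26. In WT it was also higher in WT 1 (0.075) than in WT 2 (-0.075), as were both Crabp genes (0.11 and -0.11). This order was not particular to neural tube markers. The somite mean had 0.12 and -0.12 in WT, then 0.46 and 0.28 in Hoxb1Mu. The foregut mean had 0.17 and -0.17, then 0.21 and 0.097, and the endothelium mean 0.0079 and -0.0079, then 0.10 and -0.052. The other marker lists did not have this order in both groups. The summed level of the neural tube markers was 10575 to 11167 in WT and 12103 to 12479 in Hoxb1Mu. Of them 10 had positive fold changes, and DESeq2 called 4 higher. These were Msx3 (1.26 ± 0.19) and Zic1 (1.20 ± 0.30), of the dorsal neural tube, Egr2 (0.56 ± 0.092), of the hindbrain, and Pax6 (0.41 ± 0.084). Olig3, another dorsal neural tube gene, added after its values were seen, had 188 and 282 normalised counts in WT and 143 and 181 in Hoxb1Mu (-0.52 ± 0.23, not called). The pan-neural genes Sox1, Sox2 and Sox3 had 0.067 ± 0.070, 0.0058 ± 0.077 and -0.13 ± 0.091.

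The mean of 12 neural crest markers stood at 0.36 in Hoxb1Mu 1 and 0.56 in Hoxb1Mu 2, so that here the second mutant library was the higher. Of them 10 had positive fold changes, DESeq2 called 7, all higher, and the summed level was 11732 to 12128 in WT and 14213 to 16177 in Hoxb1Mu. Sox10 (1.12 ± 0.083), Ngfr (1.45 ± 0.23) and Tfap2b (0.94 ± 0.099) were among those named by rule. Added after their values were seen, Foxd3 (-0.11 ± 0.15), Dlx2 (-0.022 ± 0.20), Sox9 (0.035 ± 0.098) and Twist1 (0.069 ± 0.11) had groups that overlapped. None of the neural tube or neural crest markers was at 0. Their part in the difference of Crabp1 was not tested.

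Cardiomyocyte markers were higher in Hoxb1Mu for 12 of 12 genes, with list means of 0.74 and 0.84. DESeq2 called 9 of them and limma called 0. The list mean was higher in Hoxb1Mu 2, where Crabp1 was higher in Hoxb1Mu 1. Neither this order nor the part of cardiomyocytes in the difference of Crabp1 was tested. The lists of foregut and endothelium markers had median fold changes of -0.0019 and 0.064. Among 8 surface ectoderm markers the median was 0.15, but DESeq2 called 2, both lower (Krt8, -0.52 ± 0.11, and Cdh1, -0.41 ± 0.079), and the summed level was 23771 to 24442 in WT and 16771 to 20474 in Hoxb1Mu. The median of red blood cell markers was -0.44, and 0.028 at a mean of at least 50, with WT sums of 604 and 16092, and that of somite markers was 0.25, and 0.11 at a mean of at least 50.

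Among 11887 genes with a mean of at least 100, those with the values most like Crabp1 over the 4 libraries were St6galnac5, Nes and Dmbx1. Their Euclidean distances to Crabp1, on centred log2 values, were 0.030, 0.047 and 0.051. With 4 libraries and so many genes, matches this close can arise without a shared source, and the distances were not tested. Nes encodes nestin, an intermediate filament protein of neuroepithelial cells, and had 3656 and 3213 normalised counts in WT and 4852 and 4235 in Hoxb1Mu. Dmbx1, a homeobox gene of the brain, had 295 and 255, then 409 and 350. St6galnac5, a sialyltransferase gene, had 97.7 and 85.6, then 131 and 111.

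**Figure D5:**
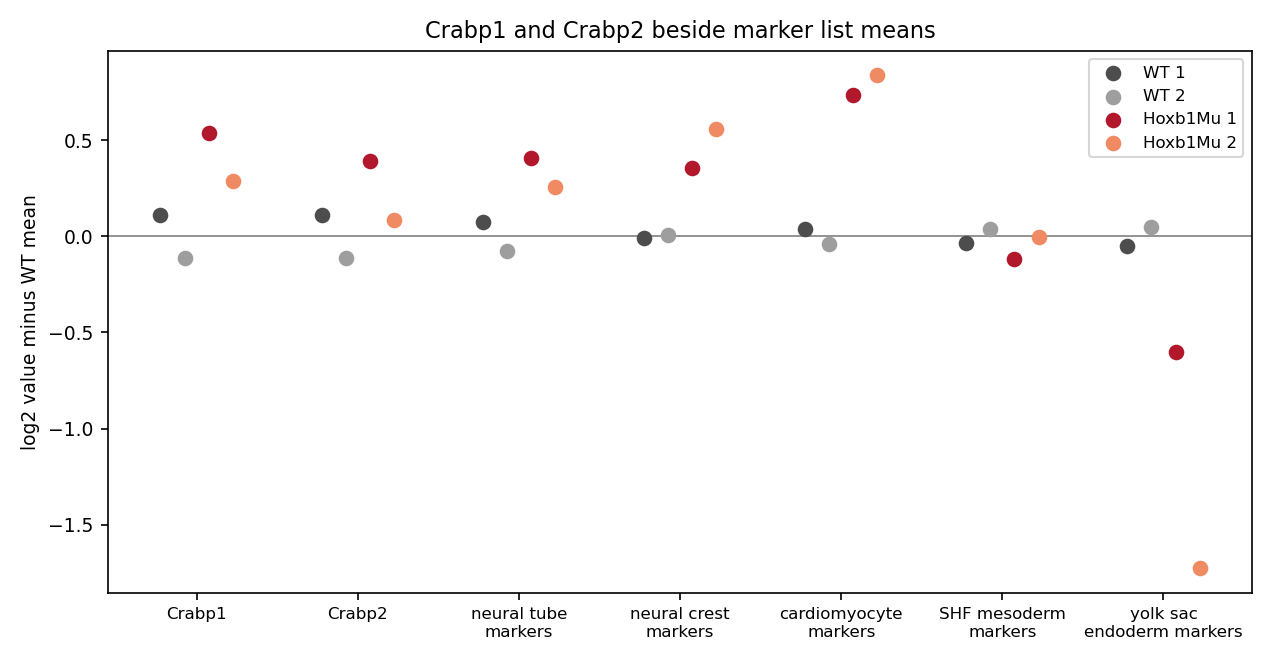
Log2 value minus the WT mean (y axis) in each library for Crabp1, Crabp2 and the means of 5 marker lists (x axis). Crabp1, Crabp2 and the neural tube markers are higher in Hoxb1Mu 1 than in Hoxb1Mu 2, the neural crest and cardiomyocyte means are higher in Hoxb1Mu 2, and the yolk sac mean is lowest in Hoxb1Mu 2. The somite, foregut and endothelium means, also higher in Hoxb1Mu 1 than in Hoxb1Mu 2, are not shown.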

How the data were processed

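RNA-seq of 2 WT and 2 Hoxb1Mu libraries was used, grouped by the genotype labels, with no batch labelled. Per the labels, first-strand cDNA was primed with both random and poly-T primers and then amplified. Per the submitters' processing notes, reads were processed with bcl2fastq 2.17.1.14, aligned to mm10 with STAR 2.5.2, counted with HTSeq and normalised with DESeq2 in R 3.3.4. For this path the annotation release and the strand setting are not given in the sources used here. The methods also describe another path, RSEM with an Ensembl annotation followed by edgeR, and the deposited columns are those of DESeq2.

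The authors deposited a normalised signal per library, which is reads divided by a size factor, and its mean. They also deposited a log2 fold change, a test score (the Wald statistic) and p-values, and these columns were not used. Whole reads were recovered for 100% of values (tolerance 0.001 of a read). Reads carry no molecular identifiers, so they are not independent molecules. The p-values rest on the spread between these libraries, with each gene's variance drawn toward a trend over all genes. Because the number of embryos per library is uncertain, so is what this spread stands for.

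The main test was limma-trend (limma 3.58.1, R 4.3.3) across all genes with a mean of at least 10 (15760 genes), on log2 of the value plus a pseudocount of 1, 2-sided, with Benjamini-Hochberg adjustment over all of them and a threshold of 0.05. It was kept as the main test because the deposited values are normalised. edgeR 4.0.16 and DESeq2 1.42.0 were run on the recovered reads, and DESeq2 left part of the genes without an adjusted p. All tools were run on simulated data with larger changes than those of the members described here, so this run does not show their power for small changes. Positions and exon lengths came from GENCODE vM21 (mm10), whose symbols matched 97.4% of the genes.

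All 8 members were named, and up to 4 genes per list, those with the smallest limma p among genes with a mean of at least 100. Some genes that this rule names are not reported here. For the member with the smallest p the 3 genes nearest in pattern were named. The members and lists were chosen with earlier results of these data known.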

Additional observations from a re-analysis of the deposited data

How the results depend on the processing

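The 8 fold changes were recomputed under 12 listed alternatives and in 4 DESeq2 fits chosen after seeing the data, without 1 library. Rara, Rxrb, Crabp1 and Crabp2 kept their sign in all 16, and without 1 library ranged from 0.13 to 0.27 for Rara, 0.071 to 0.16 for Rxrb and 0.082 to 0.39 for Crabp2. Rarb changed sign with equal totals (0.0029) and without WT 1 (0.11 by limma, 0.10 by DESeq2), Rarg without Hoxb1Mu 1 (0.0016 and 0.0027), Rxra without Hoxb1Mu 2 (-0.011 and -0.0097), and Stra6 without WT 1 (0.019 by both) and without Hoxb1Mu 1 (0.023 by both). Without 1 library, the fold change ranged from -0.16 to 0.11 for Rarb, -0.29 to 0.0027 for Rarg, -0.011 to 0.047 for Rxra by limma and -0.0097 to 0.049 by DESeq2, and -0.12 to 0.023 for Stra6. Members called numbered 0 by limma under each setting, 0 by edgeR, run under 1 setting, and 1 by DESeq2 (Crabp1, 0.42), and 0 or 1 without 1 library, where Crabp1 ranged from 0.29 to 0.54 (0.53 and 0.54 where DESeq2 called it). Over its 16 alternatives, its adjusted p ranged from 6.07e-04 to 0.420. The cause was not tested. Members whose groups did not overlap went from 3 to 5 with equal totals, which shift the median of all genes by 0.029. The longest transcript as length exchanged Rara and Rarb in the order. No paired analysis was possible because the labels give the groups no shared replicate numbers. With 2 libraries a group limma called 0 genes, so a missed threshold does not show that a gene was equal in the groups.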
